A study of Homo sapiens with 6 samples.

Results

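The neurofilament and keratin genes described here are 10 genes that encode neuronal, muscle and epithelial intermediate filament proteins: NEFL, NEFM, NEFH, INA, NES, PRPH, DES, KRT8, KRT18 and KRT19. They were chosen by name and matched to their Ensembl identifiers, 10 of the 62754 genes in the deposited count table. RNA-seq was performed on 3 libraries of control HEK293 cells and 3 libraries of FAM60A-knockout HEK293 cells. HEK293 cells grow attached and stem from embryonic human kidney; the labels also name HEK293T, its derivative that carries the SV40 large T antigen. The knockout libraries came from a puromycin-selected pool of cells transfected with a vector for Cas9 and several guides to FAM60A, not from a single clone, and the labels do not say whether the controls had received Cas9, a guide or puromycin. Nothing in the labels states that the 3 libraries of a group came from separate cultures, so the p-values measure the spread between these libraries, which may be technical.

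Intermediate filaments are ropes of coiled-coil proteins, and each lineage builds them from its own genes. Keratins form obligate pairs of a type II protein such as KRT8 with a type I protein such as KRT18 or KRT19, and these 3 are keratins of simple epithelia. Desmin and peripherin belong to the type III proteins together with vimentin, whereas the neurofilament chains, alpha-internexin and nestin are type IV proteins of neurons and their precursors. Neurofilament proteins have long been described in HEK293 cells, so both groups of genes have a place in this line.

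Total counts lay between 88361827 and 93346824 per library. The targeted gene, listed under its current symbol SINHCAF, had 10165 to 12792 counts in the controls and 5449 to 5793 in the knockout libraries. Control replicate 3 stood apart from its group: 1476 and 1446 of 20992 genes differed at least 4-fold from control replicates 1 and 2, which differed from each other in 7, and 650 to 704 differed from the knockout libraries. Its values are therefore shown by themselves for each of the 10 genes, and means and fits include it unless stated. Of the defining kidney-lineage genes, LHX1, WT1 and PAX2 were present, and PAX8 had at most 9 counts in any library.

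The start regions of INA, NES and PRPH are shown because the first 2 fell in the knockout cells whereas PRPH alone had a fitted change above 0, and because they hold the motif matches found among the members. Sequences are from RefSeq on GRCh38.p14, whose promoter table matched 4 of the 10 genes, these and KRT8. Capitals mark GGGCGG or its reverse complement, the GC box, in INA (100 bases, chr10:103277038-103277137, forward strand) and NES (100 bases, chr1:156677408-156677507, reverse strand), and TATAAA, the TATA box, in PRPH (60 bases, chr12:49295087-49295146, forward strand). Each window ends at the last base before the annotated start.
INA: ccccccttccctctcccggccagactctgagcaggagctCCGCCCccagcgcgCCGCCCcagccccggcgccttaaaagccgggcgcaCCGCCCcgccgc
NES: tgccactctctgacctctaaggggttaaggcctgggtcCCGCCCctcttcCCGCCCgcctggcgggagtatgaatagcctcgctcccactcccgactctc
PRPH: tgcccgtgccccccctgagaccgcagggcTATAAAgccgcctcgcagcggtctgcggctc

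Over the 250 bases before the start, and on both strands, INA held 4 GC boxes and NES held 2, a motif that 42.6% of all 35116 promoters hold at least once. PRPH held 1 TATA box, found in 10.7% of promoters. None of the 4 promoters held TGANTCA (an AP-1 site, in 6.6% of promoters), GGAATG (a TEAD site, in 11.9%) or CCAAT (in 32.0%). No window held both the GC box and the TATA box, so these matches did not overlap.

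In FAM60A-knockout cells 4 of the 10 genes fell and none rose. These were the neuronal genes INA, NES and NEFM and the muscle gene DES, with log2 fold changes between -2.75 and -0.77. At an adjusted p of at most 0.05 from edgeR's quasi-likelihood test, 16.6% of the 20992 genes tested were called, with 8.67% called lower and 7.96% called higher. All 10 members passed the filter on low counts. When a log2 change of 1 or more in either direction was also required, INA, NES and DES were called, against 7.06% of all genes tested and 3.72% in the lower direction. The fitted change was below 0 for 9 of the 10 genes, against 50.6% of all genes tested, and its median was -0.79 against -0.01. Without control replicate 3 it was below 0 for 7 members, against 10870 of 21686 genes, with a median of -0.99. The 10 genes were chosen with earlier results of these data known, so this comparison is no test of a shared shift. The number of calls also changed with the libraries used. Without control replicate 3, 8 members were called, 7 lower and 1 higher, but so were 65.6% of all genes tested in that fit, 33.2% lower and 32.4% higher. With the fold requirement 6 members were called in that fit, 5 of them lower, against 22.9% and 9.75% of all genes. Omitting any other single library left 1 or 2 members called, in fits that called 0.763% to 4.89% of all genes. The groups did not overlap in CPM for 5 members, all lower in the knockout cells, whereas 41.6% of all genes tested did not overlap and 20.1% did so in the lower direction.

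**Figure D1:**
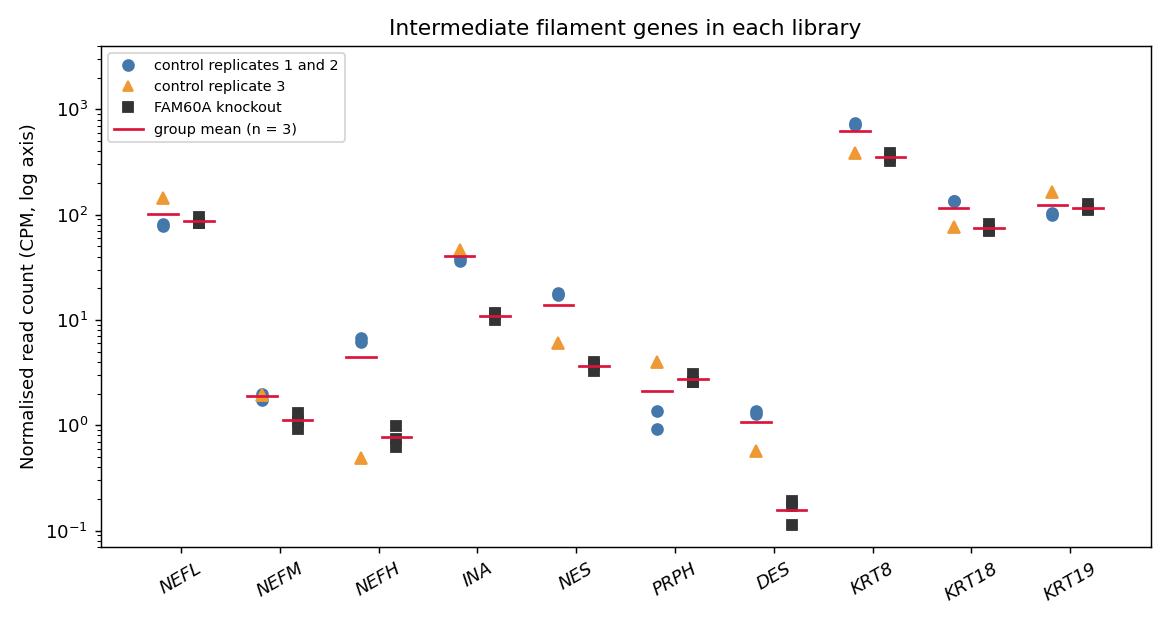
Normalised read counts (CPM, log axis) of the 10 genes in each library, with control replicates 1 and 2 as circles, control replicate 3 as a triangle, knockout libraries as squares and red lines for the group means (n = 3). All knockout libraries lie below all controls for NEFM, INA, NES, DES and KRT8, while control replicate 3 is the highest library for NEFL, INA, PRPH and KRT19 and the lowest for NEFH.

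INA encodes alpha-internexin, a type IV filament protein that co-assembles with the neurofilament chains. Control replicates 1, 2 and 3 held 3741, 3495 and 4504 INA counts, and the knockout libraries held 964, 1018 and 883. Every control, replicate 3 included, lay far above every knockout library. Normalised expression was 40.5 ± 5.41 CPM (counts scaled to a common library total after TMM; SD, n = 3) in control and 11.0 ± 0.884 CPM in knockout cells. Knockout against control gave -1.88 on the log2 scale (edgeR adjusted p = 0.0026, standard error 0.14). INA was the only member called under all 13 alternative settings, where the adjusted p lay between 1.42e-26 and 0.0437. A two-sided exact permutation test over the libraries gave p = 0.1 for INA, as for NEFM, NES, DES and KRT8, which is the smallest value that 3 against 3 libraries allow.

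INA shares 452 exon bases with NT5C2 on the opposite strand. NT5C2 counts were 2651, 2410 and 1964 in the controls against 1388, 1354 and 1534 in the knockout cells. The libraries were strand-specific, but whether counting used the strand is not given in the sources used here, so reads from these shared bases cannot be assigned with certainty.

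NES encodes nestin, the large filament protein of neural and muscle progenitors. Control replicates 1 and 2 gave 1768 and 1653 counts, control replicate 3 gave 582, and the knockout libraries gave 314, 287 and 350. Control replicate 3 lay between the other controls and the knockout libraries, nearer to the latter. Expression was 13.8 ± 6.76 CPM in control and 3.65 ± 0.352 CPM in knockout cells (SD, n = 3), a difference of -1.92 on the log2 scale (edgeR adjusted p = 0.0299, standard error 0.42). Omitting any single library except control replicate 3 ended the call, with adjusted p from 0.0853 without control replicate 1 to 0.136 without knockout replicate 1, and limma-voom with quantile normalization gave 0.0702.

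DES encodes desmin, the filament protein of muscle. It was weakly expressed, with 124, 130 and 55 counts in control cells against 16, 10 and 15 after knockout. The groups did not overlap, and control replicate 3 was again intermediate. Expression was 1.07 ± 0.432 CPM in control and 0.158 ± 0.0394 CPM in knockout cells (SD, n = 3), and the fitted log2 change of -2.75 (edgeR adjusted p = 0.0121, standard error 0.42) was the lowest of the 10. Without any one of the knockout libraries the adjusted p rose to between 0.0671 and 0.0796. Of 10 further muscle genes 2 had at most 3 counts in every library and 4 were tested, with a summed level of 17.8 and 19.3 CPM in control replicates 1 and 2, 48.9 CPM in control replicate 3 and 10.5 to 11.0 CPM after knockout. Among them TNNT1, a slow troponin, was called lower (log2 fold change -1.75, edgeR adjusted p = 0.043), with 1290, 1451 and 3892 counts against 590, 603 and 572. Of all genes tested, 8.67% were called lower. TNNT1 lost its call without control replicate 2 or any one knockout library, with adjusted p up to 0.165.

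The neurofilament triplet did not move as a unit. NEFL, NEFM and NEFH encode the light, medium and heavy chains, of which the light chain is the core of the filament and the others extend side arms from it. NEFL counts were 7638, 7754 and 13798 in control replicates 1, 2 and 3, against 7062, 8420 and 7294 after knockout. The knockout libraries overlapped with control replicates 1 and 2 in raw counts and lay slightly above them after scaling, at 82.6 to 96.0 CPM against 78.6 and 80.7, whereas control replicate 3 was highest at 143 CPM. The fitted log2 change was -0.20 (edgeR adjusted p = 0.595, standard error 0.25), and it turned to 0.10 without control replicate 3, again not called (adjusted p = 0.261).

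NEFM, although the neighbour of NEFL on chromosome 8, gave 168, 192 and 188 counts in control cells against 93, 115 and 81 after knockout. Control replicate 3 resembled the other controls here. Mean expression was 1.89 ± 0.143 CPM in control and 1.11 ± 0.197 CPM in knockout cells (SD, n = 3), and NEFM fell by 0.77 on the log2 scale (edgeR adjusted p = 0.0493, standard error 0.20). This lay at the edge of the threshold, and the adjusted p was 0.111 with no filter on low counts and between 0.0944 and 0.193 without any one library other than control replicate 3.

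NEFH gave 654 and 596 counts in control replicates 1 and 2, but 47 in control replicate 3, against 52, 87 and 65 after knockout. Control replicate 3 was the lowest library of all. The fitted log2 change of -2.51 had a standard error of 0.88 and an edgeR adjusted p of 0.0975, and DESeq2 called it with an adjusted p of 0.0052. Without control replicate 3 it was -3.07 (standard error 0.15, adjusted p = 1.31e-13), the second-lowest of the 10 genes in that fit after DES at -3.08.

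Antisense transcripts overlap parts of these genes. ENSG00000272163 shares 960 exon bases with NEFM and gave 92, 96 and 67 counts in control against 20, 27 and 24 in knockout cells, lower after knockout as NEFM was, so the NEFM values are uncertain too. ENSG00000272157 shares 781 bases with NEFL and had 45 to 106 counts in control and 105 to 146 in knockout libraries.

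PRPH encodes peripherin, a type III protein of peripheral and cranial neurons. Control replicates 1 and 2 gave 90 and 132 counts, control replicate 3 gave 384, and the knockout libraries 216, 267 and 227. It was the only member with a fitted change above 0, at 0.38 on the log2 scale (edgeR adjusted p = 0.647, standard error 0.53), and the groups overlapped. Without control replicate 3, PRPH was higher by 1.21 on the log2 scale (adjusted p = 1.57e-06, standard error 0.17). The antisense gene TROAP-AS1 shares 1872 exon bases with PRPH and gave 24, 20 and 101 counts in control against 87, 75 and 87 in knockout cells, with control replicate 3 highest in both genes, so the PRPH values are uncertain.

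**Figure D2:**
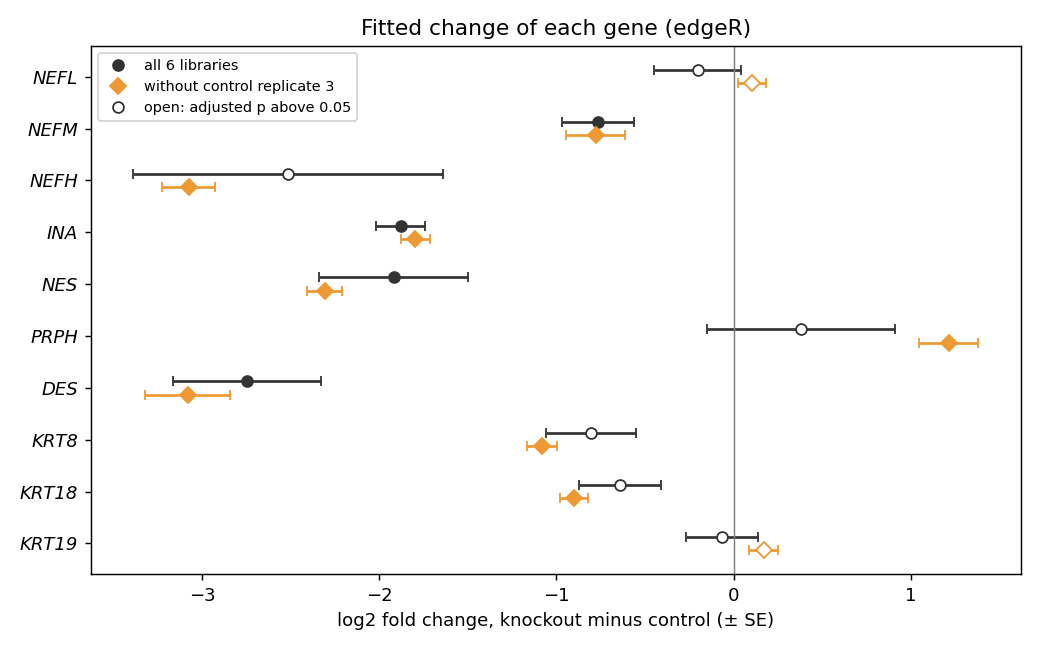
Fitted log2 fold change of each gene, knockout minus control, with its standard error as a bar, for all 6 libraries (circles) and without control replicate 3 (diamonds). Filled symbols passed an adjusted p of 0.05 (edgeR). INA and NEFM hardly differ between the fits, NEFL and KRT19 change sign, and the error bar of NEFH shrinks from 0.88 to 0.15.

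Among the epithelial genes, KRT8 and KRT18 had lower means in the knockout cells without passing the test, and KRT19 did not follow them. KRT8, the member with the highest count in every library, gave 69249 and 71970 counts in control replicates 1 and 2, 37378 in control replicate 3, and 29461, 33595 and 28809 after knockout. After scaling, control replicate 3 lay just above the knockout libraries, at 387 CPM against 326 to 383 CPM. The means were 616 ± 199 and 353 ± 28.5 CPM (SD, n = 3), and the fitted log2 change was -0.80 (edgeR adjusted p = 0.0758, standard error 0.25). DESeq2 called it with an adjusted p of 0.0257, and without control replicate 3 the log2 fold change was -1.08 (edgeR adjusted p = 3.63e-10).

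KRT18, the type I partner of KRT8, gave 13143, 13082 and 7399 counts in control against 6031, 7173 and 6167 in knockout cells. At 76.6 CPM, control replicate 3 fell within the range of the knockout libraries, 69.8 to 81.8 CPM. The fitted log2 change was -0.64 (edgeR adjusted p = 0.104, standard error 0.23), and -0.90 without control replicate 3 (adjusted p = 2.3e-09).

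KRT19, a type I keratin that can pair with KRT8 in place of KRT18, gave 9596, 10059 and 15752 counts in control against 9322, 11031 and 10075 in knockout cells, so the groups overlapped. The fitted log2 change was -0.06 (edgeR adjusted p = 0.849, standard error 0.20). Without control replicate 3 it was 0.17 (adjusted p = 0.0665).

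KRT8 and KRT18 are neighbours on chromosome 12 (GRCh38, 52897191 to 52949860 on the reverse strand and 52948855 to 52952906 on the forward strand), and they share 525 exon bases on opposite strands. Both also have many processed pseudogenes that can take up their reads. The 51 annotated KRT8 pseudogenes together held 16.1% to 17.6% of the KRT8 count in each library, and the 68 KRT18 pseudogenes held 8.69% to 11.2% of the KRT18 count, against at most 0.0496% for the 5 pseudogenes of KRT19. When these counts were added to their parents, the log2 fold changes were -0.79 for KRT8 and -0.62 for KRT18, and neither passed the threshold.

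The mix of keratin transcripts differed between libraries. On a per-length scale (TPM, here counts per base of merged exons scaled to a common total per library), KRT8 held 54.5% and 55.0% of the summed level of the 3 keratins in control replicates 1 and 2, 37.2% in control replicate 3, and 39.8% to 41.8% in the knockout libraries. KRT19 held 22.3% and 22.6%, 46.2%, and 39.0% to 41.0% in the same order. The ratio of KRT19 to KRT18 was accordingly 0.959 and 1.01 in control replicates 1 and 2, 2.80 in control replicate 3, and 2.02 to 2.15 in the knockout libraries. The ratio of KRT8 to KRT18 varied less, from 2.25 to 2.45 in the controls and from 2.08 to 2.18 in the knockout libraries. These values depend on the gene length used. With the length of the canonical transcript, KRT8 to KRT18 averaged 4.18 in the controls, and the knockout libraries gave 3.70 to 3.87. The KRT19 share was then 12.5% and 12.7% in control replicates 1 and 2, 30.2% in control replicate 3 and 24.4% to 26.1% after knockout, and the KRT8 share was 70.5%, 71.0%, 55.8% and 58.2% to 60.1%.

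Of the 6 neuronal members, NEFL had the highest level per length in every library. In control replicates 1 and 2 INA came next on this scale, at 37.3 and 34.3, followed by NES at 10.3 and 9.46, NEFH at 5.59 and 5.01, NEFM at no more than 1.68 and PRPH, lower than NEFM in both, at 1.12 and 1.61. Control replicate 3 had another order, with PRPH above NES at 3.13, NEFM at 1.55 and NEFH at 0.371. The knockout libraries shared this order with control replicate 3, with mean levels of 55.1 ± 5.42 for NEFL, 8.41 ± 0.699 for INA, 2.59 ± 0.298 for PRPH, 1.63 ± 0.143 for NES, 0.759 ± 0.142 for NEFM and 0.512 ± 0.133 for NEFH (SD, n = 3). The ranges of 1 SD overlapped for NEFM and NEFH. With canonical transcript lengths PRPH stood above NEFM in control replicate 2, at 1.48 against 1.19. The ratio of NEFL to INA was 1.68, 1.83 and 2.53 in the controls and 6.04 to 6.82 in the knockout libraries.

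**Figure D3:**
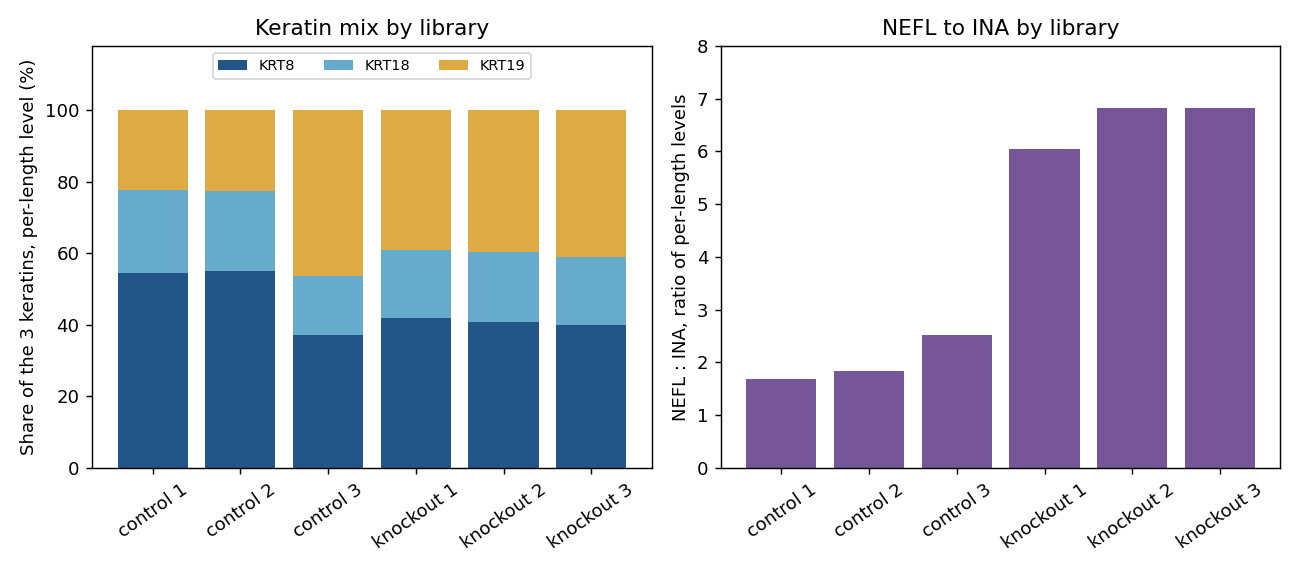
Left, share of the summed per-length level of KRT8, KRT18 and KRT19 held by each gene, in percent, in each library; right, ratio of the per-length levels of NEFL and INA in each library. On the merged-exon scale KRT19 takes 39.0% to 46.2% in control replicate 3 and the knockout libraries against 22.3% and 22.6% in control replicates 1 and 2, and all 3 controls lie at or below 2.53 in the NEFL to INA ratio against 6.04 or more in the knockout.

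The position of control replicate 3 differed from gene to gene. It was the highest of the 6 libraries for NEFL, INA, PRPH and KRT19 and the lowest for NEFH. Of the 6 members whose knockout mean lay at least 1 log2 unit from that of control replicates 1 and 2, control replicate 3 lay nearer to the knockout mean in 4, NEFH, NES, PRPH and KRT8. The same held for 68.9% of the 4412 genes of all tested with such a distance.

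The genes whose pattern over the 6 libraries was most like that of DES, the member with the lowest fitted change, were HNMT, C2CD4C and MIR4458HG. Their root mean square difference from it was 0.124, 0.165 and 0.175 log2 units after centring, among 14633 genes with at least 100 counts on average. For PRPH, the member with the highest fitted change, these were U2AF1L4, DTX3 and CACNA2D3, at 0.103, 0.114 and 0.118.

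Some filament genes outside the 10 had larger fitted changes than any member. Of the other 61 intermediate filament genes, most of them hair and skin keratins, 31 had at most 3 counts in every library and 16 were tested. Of these, 3 fell and 2 rose, beside 8.67% and 7.96% of all genes tested, and the median log2 fold change was -0.14. KRT17, a type I keratin of injured and basal epithelium, gave 27878 and 30243 counts in control replicates 1 and 2, 1232 in control replicate 3, and 546, 641 and 563 after knockout. The fitted log2 change was -4.93 (edgeR adjusted p = 0.032, standard error 1.11). KRT80, a type II keratin, fell in the same way, from 597, 572 and 31 counts to 13, 12 and 8 (log2 fold change -5.01, adjusted p = 0.0304). KRT75, a type II keratin of hair follicles, rose from 6, 10 and 57 counts to 193, 250 and 194 (log2 fold change 3.27, adjusted p = 0.0399).

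KRT10, a type I keratin of differentiating epidermis, fell with a log2 fold change of -0.88 (adjusted p = 0.0137), and the controls did not stand apart from each other in it, with 2670, 3433 and 2666 counts against 1348, 1536 and 1402. LMNB1, a nuclear lamin, rose by 0.42 on the log2 scale (adjusted p = 0.0289), but not past the threshold without TMM (0.0596) or with no filter on low counts (0.0599). VIM, the mesenchymal type III filament gene, resembled KRT8, with 67461, 67908 and 28924 counts in control against 22202, 27081 and 22257 in knockout cells (log2 change -1.04, adjusted p = 0.0745). DESeq2 called VIM with an adjusted p of 0.015, and without control replicate 3 its log2 change was -1.38 (edgeR adjusted p = 1.36e-11). LMNA (0.25, adjusted p = 0.214) and LMNB2 (-0.26, adjusted p = 0.0814) were not called, although LMNB2 was without TMM (0.0294), under limma-voom (0.0298) and without control replicate 3 (0.00146). KRT7 had 26, 20 and 3 counts against 2, 4 and 6 and was not tested with all libraries. Without control replicate 3 it was tested and called lower (log2 change -2.36, edgeR adjusted p = 0.000121). The calls of KRT17, KRT80 and KRT75 were lost without any one library other than control replicate 3, with adjusted p up to 0.149, 0.139 and 0.141, and limma-voom gave 0.133 for both KRT17 and KRT80. LMNB1 lost its call in the same way (up to 0.113), and KRT10 without any one knockout library (up to 0.0927).

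Of 24 genes for proteins that link, move, chaperone or phosphorylate filaments, 22 were tested, and 5 rose and 5 fell. Among all genes tested, 7.96% were called higher and 8.67% lower. The median log2 fold change of the list was 0.04. PLEC, which encodes the filament crosslinker plectin, rose from 38.1 ± 1.80 to 119 ± 20.2 CPM (SD, n = 3; log2 fold change 1.64, edgeR adjusted p = 0.00344), with 3556 to 3909 counts in every control and 8804 to 12399 in the knockout libraries. EPPK1, for the keratin-binding epiplakin, rose by 1.57 on the log2 scale (adjusted p = 0.0331), from 2020, 1216 and 976 counts to 3681, 2469 and 5099. JUP, for the junction protein plakoglobin, fell from 111 ± 8.26 to 49.2 ± 6.88 CPM (log2 fold change -1.17, adjusted p = 0.00582). HSPB1, for a small heat shock protein that associates with filaments, fell from 56.0 ± 9.45 to 20.2 ± 2.99 CPM (log2 fold change -1.47, adjusted p = 0.00632). CDK5, for a kinase that phosphorylates neurofilaments, fell by 1.12 on the log2 scale (adjusted p = 0.0182), from 4021, 4514 and 2722 counts to 1429, 1725 and 1484. PLEC was called under all 13 alternatives. JUP and HSPB1 lost their calls without knockout replicate 1 or 3 (adjusted p up to 0.0545 and 0.0598), EPPK1 without control replicate 2 or any knockout library (up to 0.129), and CDK5 without any single library except control replicate 3 (up to 0.107).

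PKP3, for the desmosomal protein plakophilin 3, gave 2374, 2339 and 15 counts in control cells and 3 in each knockout library. It fell (edgeR adjusted p = 0.0297), although limma-voom gave an adjusted p of 0.222, and without control replicate 3 its adjusted p was 1.13e-20, whereas omitting another library gave 0.0737 to 0.142. DSC2, KIF5C and MACF1 rose and CDK5R1 fell with smaller changes (0.92, 0.99, 0.60 and -0.48 on the log2 scale, adjusted p = 0.0127, 0.00552, 0.0382 and 0.0436); these 4 were named after their values were seen. KIF5C lost its call without knockout replicate 1 or 3 (adjusted p up to 0.0535), DSC2 without control replicate 2 or any knockout library (up to 0.0803), and MACF1 and CDK5R1 without any single library except control replicate 3 (up to 0.136 and 0.178), MACF1 also under limma-voom (0.0521). Of the partners that rose, PLEC, MACF1, DSC2 and EPPK1 have canonical transcripts of 14804, 24340, 12331 and 8000 bases. Of those that fell, JUP, PKP3, HSPB1 and CDK5 have 3505, 2817, 777 and 1122 bases. DST, with 24709 bases, and DSP, with 9697, were not called (0.08 and -0.50 on the log2 scale, edgeR adjusted p = 0.833 and 0.353). Over the 672 tested genes whose canonical transcript exceeds 10000 bases the median log2 fold change was 0.03, and 10.3% of them were called higher. A part of transcript length in the partner results was not tested.

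**Figure D4:**
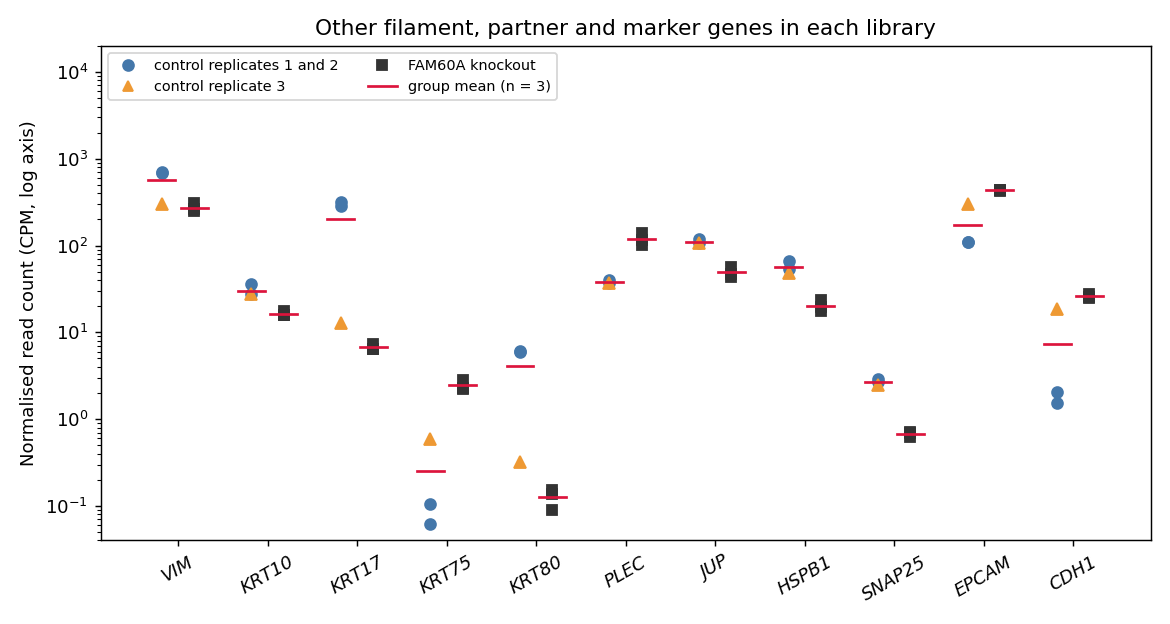
Normalised read counts (CPM, log axis) of filament, partner and marker genes outside the 10, with the same symbols for control replicates 1 and 2, control replicate 3, the knockout libraries and the group means (n = 3). KRT10, PLEC, JUP, HSPB1 and SNAP25 separate all controls from all knockout libraries with control replicate 3 beside the other controls, whereas for VIM, KRT17 and KRT80 it lies near the knockout libraries.

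Few lineage markers passed the test with all 6 libraries. Of 9 epithelial genes, 8 were tested and all 8 had a fitted change above 0, with a median of 1.31. CLDN4 and RAB25 hardly changed in the fit, at 0.014 each (edgeR adjusted p = 0.969 and 0.996). Of all genes tested, 50.6% had a fitted change below 0. Only CLDN7, for a tight junction claudin, was called (log2 fold change 1.52, edgeR adjusted p = 0.00552), beside 16.6% of all genes tested, 7.96% higher. Its counts were 412, 486 and 376 against 1104, 1081 and 1090. Without control replicate 3, 7 of the 8 were called, all higher, in a fit that called 65.6% of all genes, 32.4% higher. The summed level of the list was 183 and 186 CPM in control replicates 1 and 2, 525 CPM in control replicate 3 and 692 to 723 CPM in the knockout libraries. EPCAM, for an epithelial adhesion molecule, gave 10669, 10521 and 29052 counts in control against 37291, 38691 and 37289 in knockout cells. Its log2 change was 1.33 (edgeR adjusted p = 0.0733, 0.0492 under limma-voom and 0.00869 under DESeq2). Without control replicate 3 the log2 change of EPCAM was 1.96 (edgeR adjusted p = 1.33e-14). Control replicates 1 and 2 were thus the lowest libraries for the summed epithelial level and the highest for KRT8 and KRT18. CLDN7 lost its call without knockout replicate 1 or 3 (adjusted p up to 0.0542).

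Of 12 neuronal genes 8 were tested and 2 were called, both lower, beside 8.67% of all genes tested. The median log2 fold change of the 8 was -1.24. Without control replicate 3 all 8 were called, 6 lower and 2 higher, beside 33.2% and 32.4% of all genes. The 2 higher ones were MAPT, for the microtubule protein tau, with 532, 520 and 4022 counts against 1935, 2238 and 2111, and RBFOX3, a splicing factor of neurons, with 164, 185 and 860 counts against 260, 290 and 311. SNAP25, for a synaptic membrane fusion protein, fell from 2.69 ± 0.219 to 0.672 ± 0.0491 CPM (SD, n = 3; edgeR adjusted p = 0.0037), with 283, 258 and 239 counts against 52, 60 and 63. TUBB3, for a neuronal tubulin, fell by 1.56 on the log2 scale (adjusted p = 0.0314), with 84, 84 and 40 counts against 23, 21 and 19; it lost its call without any single library except control replicate 3 (up to 0.141) and under limma-voom (0.0605). The summed level of the neuronal list was 504 to 608 CPM in the controls and 430 to 495 CPM in the knockout libraries, most of it from UCHL1, and DCX had at most 6 counts in any library. A smaller share of cells with these transcripts and less RNA per cell cannot be told apart in bulk libraries, and the part of either marker list in the results for the 10 genes was not tested.

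Among 26 regulators of neuronal, epithelial and muscle genes, 19 were tested, 3 rose and 1 fell. The shares over all genes tested were 7.96% called higher and 8.67% called lower. ELF3, an epithelial transcription factor, rose from 26, 16 and 31 counts to 226, 247 and 233 (log2 fold change 3.42, edgeR adjusted p = 0.00296). FOS, an AP-1 subunit, rose by 1.11 on the log2 scale (adjusted p = 0.0312), from 529, 526 and 315 counts to 849, 1012 and 792. JUN, its partner, which was named after its values were seen, rose from 337 ± 2.80 to 615 ± 17.6 CPM (SD, n = 3; log2 fold change 0.87, adjusted p = 0.00404). MYT1, a neural zinc finger factor, fell by 3.10 on the log2 scale (adjusted p = 0.0431), from 56, 58 and 309 counts to 16, 13 and 15. The neural regulators NEUROG2 and POU4F1 went the other way without being called. NEUROG2 gave 37, 33 and 184 counts against 254, 303 and 222 (log2 change 1.77, edgeR adjusted p = 0.125). POU4F1 gave 1042, 874 and 2866 against 4550, 4285 and 4481 (1.63, adjusted p = 0.0556). Of the 19 regulators tested, 5 had a fitted change below 0. FOS and MYT1 lost their calls without any single library except control replicate 3 (adjusted p up to 0.129 and 0.162) and under limma-voom (0.0587 and 0.0537), and without that control MYT1 was at -1.82. REST, the repressor of neuronal genes, had a log2 fold change of -0.03 (adjusted p = 0.914), which was 0.09 without control replicate 1 and -0.20 (called, adjusted p = 0.042) without control replicate 3, and was named after its values were seen.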

How the data were processed

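Poly(A)-selected, strand-specific RNA-seq libraries were prepared from 3 control and 3 FAM60A-knockout samples. The paper's methods name Trimmomatic and Salmon on hg38, the submitters' processing notes name STAR 2.7.10b, featureCounts 2.0.0 and hg38, while hg19 appears in the labels. Per gene, whole-number counts that were not normalized were deposited by the authors. The annotation release and the strand setting are not given in the sources used here. Symbols were matched for 60878 of 62754 genes, and exon lengths and overlaps came from GENCODE 44 lifted to GRCh37.

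Counts were fitted with edgeR 4.0.16 in R 4.3.3: TMM scaling, filterByExpr with a minimum count of 10, the two-sided quasi-likelihood F-test and Benjamini-Hochberg adjustment over 20992 genes. In simulated counts with the same library sizes, 200 of 200 genes changed by 3 on the log2 scale were called, with 7 false calls. The simulation gave every gene the same dispersion and set no control library apart. It therefore does not show how many changes are found with the spread that control replicate 3 adds. Alternatives were DESeq2 1.42.0, limma-voom (limma 3.58.1) with quantile normalization, other scaling and filters, pseudogene counts added to their parents, each library left out, and the replicate number as a block. Canonical transcript lengths were added after seeing the data.

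Members and lists were chosen with earlier results of these data known. All 10 members are named. From the other lists, genes past an adjusted p of 0.05 and an absolute log2 fold change of 1 are named, up to 8 per list, plus VIM, LMNA, LMNB1, LMNB2, KRT7, KRT10 and KRT80 in any case. EPCAM, CLDN4, RAB25, UCHL1, DCX, MAPT, RBFOX3, NEUROG2, POU4F1, DST, DSP, PAX2, PAX8 and WT1 were named outside this rule, after their values were seen. Further lists held 6 kidney genes and the muscle, neuronal and epithelial markers given in the text. Of the kidney genes 4 were tested, and LHX1 was called lower, beside 8.67% of all genes tested. LHX1 lost its call without any single library except control replicate 3. Pattern likeness was the root mean square difference of centred log2 CPM (prior count 2). Figures were drawn with matplotlib 3.10.9.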

Additional observations from a re-analysis of the deposited data

How the results depend on the processing

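Leaving out 1 library moved the number of members called at an adjusted p of 0.05 (4 with all libraries) between 1 and 8, that with a log2 fold change of at least 1 (3) between 1 and 6, the other filament genes (5) between 0 and 13, the partners (10) between 1 and 16 and the regulators (4) between 2 and 16; the upper end was the fit without control replicate 3 each time, and over these omissions 0.763% to 65.6% of all genes were called. The 0 calls among other filament genes came from edgeR without knockout replicate 1, 2 or 3 and from the blocked fit, where 8, 9, 7 and 9 genes had an unadjusted p under 0.05. With the replicate block the counts were 1, 1, 0, 4 and 2, beside 1.94% of all genes. Deviations of same-numbered libraries from their group means had correlations of 0.0101, 0.0306 and -0.0362. Control replicates 1, 2 and 3 correlated best with knockout replicates 3, 2 and 2. Control replicate 3 stood far from its group, so these values cannot decide whether the libraries were paired. DESeq2 called 8 other filament genes and 7 regulators, and a minimum of 10 counts in every library gave 3 other filament genes; the other counts stayed within 1.5 times. NEFL and KRT19 changed sign without control replicate 3 and REST without control replicate 1; over the single omissions they ranged from -0.377 to 0.104, from -0.221 to 0.169 and from -0.199 to 0.0905. With canonical transcript lengths KRT8 to KRT18 in the controls was 4.18 in place of 2.35; without 1 control it lay between 2.30 and 2.40. Library size without TMM shifted the log2 fold changes by a median of -0.109 over all genes. In each case the cause was not tested. Depth limits DES most, at 10 to 16 counts in the knockout libraries.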
